A study of Mus musculus with 189 samples.

Results

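Krt8, Krt19, Tspan8, Dppa1 and Lrpap1 were 5 of the 156 genes with a usable assay, out of 192 assayed, in a single-cell quantitative PCR survey of mouse preimplantation embryos. They are the keratins Krt8 and Krt19 and 3 further transcripts, put together here under a trophectoderm heading. They were taken by name from the table of unnormalized values. The study listed Krt8, Tspan8 and Dppa1 as known trophectoderm markers, and its main text does not name Krt19 or Lrpap1. All 5 assays had passed the quality control of the study. The survey was set up to follow mainly chromatin modifiers through the developmental transitions of the preimplantation embryo, and lineage genes served as landmarks. Oocytes came from superovulated F1 females (C57BL/6 x DBA/2), embryos from such females mated to C57BL6 males, and embryos were grown in KSOMaa medium at low oxygen. No group was treated or mutant, and an age of the animals was not given in the sources used here.

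The main set held 168 samples. There were 11 MII oocytes, which are mature unfertilized eggs, and 14 zygotes. A further 21 samples came from 8 units of the 2-cell stage, 7 from 3 embryos of the 3-cell stage, 12 from 6 of the 4-cell stage and 27 from 7 of the 8-cell stage, in each case single blastomeres, groups of blastomeres or whole embryos. The 16-cell stage (morula) was represented by 26 blastomere samples from only 2 embryos and the 32-cell stage (blastocyst) by 50 from 7 embryos. Single cells made up 20 of the 26 and 32 of the 50, and the rest of these 76 were pools of a few blastomeres. Outside the main set there were 3 whole embryos of the 16-cell and 3 of the 32-cell stage, 1 sample labelled as isolated inner cell mass (ICM), 1 labelled as isolated trophectoderm, and 10 dilutions of embryonic stem cell (ESC) RNA. The blastomeres were picked by hand after enzymatic removal of the zona pellucida and trypsin treatment, so the samples of an embryo did not necessarily cover all of its cells.

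The trophectoderm is the outer epithelium of the blastocyst, and it gives rise to the placenta, while the ICM gives rise to the embryo proper. Outer cells of the morula become polarized, and the transcription factors Tead4, Cdx2 and Gata3 act in the trophectoderm programme, whereas Sox2, Nanog and Pou5f1 belong to the pluripotent programme. Keratins are the intermediate filament proteins of epithelia, and they assemble as pairs of a type II and a type I chain. Krt8 encodes a type II chain and Krt19 a type I chain that can pair with it. Tspan8 encodes a tetraspanin, a protein of the cell membrane. Dppa1 is named for its expression in pluripotent cells and early embryos (developmental pluripotency associated), and Lrpap1 encodes a chaperone that escorts receptors of the low density lipoprotein receptor family through the endoplasmic reticulum.

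The promoters of Krt8, Tspan8 and Dppa1 are shown because these 3 genes varied together among blastomeres, as described further on. The sequences run from 250 bases before to 50 bases after the annotated start of the gene (RefSeq, GRCm38.p6, 5′ to 3′ on the strand of the gene), and letters in capitals mark matches to a motif. Krt8 is at chr15:102004293-102004592 on the minus strand, Tspan8 at chr10:115817034-115817333 on the plus strand and Dppa1 at chr11:46629225-46629524 on the minus strand.
Krt8: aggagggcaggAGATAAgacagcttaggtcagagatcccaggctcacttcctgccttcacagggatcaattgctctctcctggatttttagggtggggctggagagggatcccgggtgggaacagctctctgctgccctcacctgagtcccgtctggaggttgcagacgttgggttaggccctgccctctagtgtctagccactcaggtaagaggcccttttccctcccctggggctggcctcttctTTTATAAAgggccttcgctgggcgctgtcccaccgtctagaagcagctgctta
Tspan8: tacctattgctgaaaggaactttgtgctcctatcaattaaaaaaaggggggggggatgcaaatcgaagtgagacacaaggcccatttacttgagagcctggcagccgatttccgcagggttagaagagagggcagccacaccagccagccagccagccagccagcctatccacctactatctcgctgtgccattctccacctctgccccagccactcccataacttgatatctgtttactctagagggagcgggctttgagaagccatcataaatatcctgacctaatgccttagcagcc
Dppa1: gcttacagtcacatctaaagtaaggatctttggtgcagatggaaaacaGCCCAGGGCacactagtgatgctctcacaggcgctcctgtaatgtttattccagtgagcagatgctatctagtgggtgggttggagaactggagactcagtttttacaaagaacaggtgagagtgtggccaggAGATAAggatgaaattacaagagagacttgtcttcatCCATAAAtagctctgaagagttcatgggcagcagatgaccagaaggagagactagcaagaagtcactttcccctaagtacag
Both strands were searched for a motif of GATA factors, spelled AGATAA. The letters for TEAD factors were GGAATG and those for CDX2 were TTTATNG. AP-2 was searched as GCCNNNGGC, and the TATA box as TATAAA. Krt8 held AGATAA at bases 12 to 17. It held the letters of the TATA box on both strands, at bases 248 to 253 and 250 to 255, across the annotated start. Dppa1 held AGATAA at bases 182 to 187 with 1 match each for CDX2 and AP-2. The promoter of Tspan8 held none of these letters, nor did that of Lrpap1 (chr5:35105650-35105949, minus strand). Among all 32851 promoters of this length, 11.2% held the GATA motif, 10.9% that of CDX2, 16.6% that of AP-2, 14.7% that of TEAD and 13.6% the TATA box.

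Expression is given as 30 minus the cycle threshold (Ct), minus the mean of the same quantity for the control genes Hnrnpr, Ssu72 and Ube2e1. A difference of 1 on this log2 scale is 1 PCR cycle, that is a doubling at full efficiency. Levels of different genes cannot be ranked, because each assay has its own efficiency. A gene that was not detected was listed at a Ct of 30 and therefore took a value set by the controls of its sample. The median of this lower limit was −17.10 for MII oocytes, −16.95 for zygotes, −13.74 for the 2-cell, −15.08 for the 4-cell, −14.60 for the 8-cell, −14.04 for the 16-cell and −12.26 for the 32-cell samples. It was thus highest at the 32-cell and 2-cell stages, where a transcript had to reach a higher value to be detected. Of the 840 values of the 5 genes in the main set, 251 (29.9%) were not detected. Lrpap1 was detected in all 168 samples, Krt8 in 158, Dppa1 in 119, Tspan8 in 112 and Krt19 in 32. In this set the samples of the 2-, 4- and 8-cell stages include whole embryos, while those of the 16- and 32-cell stages do not. The part of sample type in counts and differences between stages was not tested. Stages were compared with limma on 58 units, with the samples of an embryo averaged first, and p-values were adjusted over the 156 genes.

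**Figure D1:**
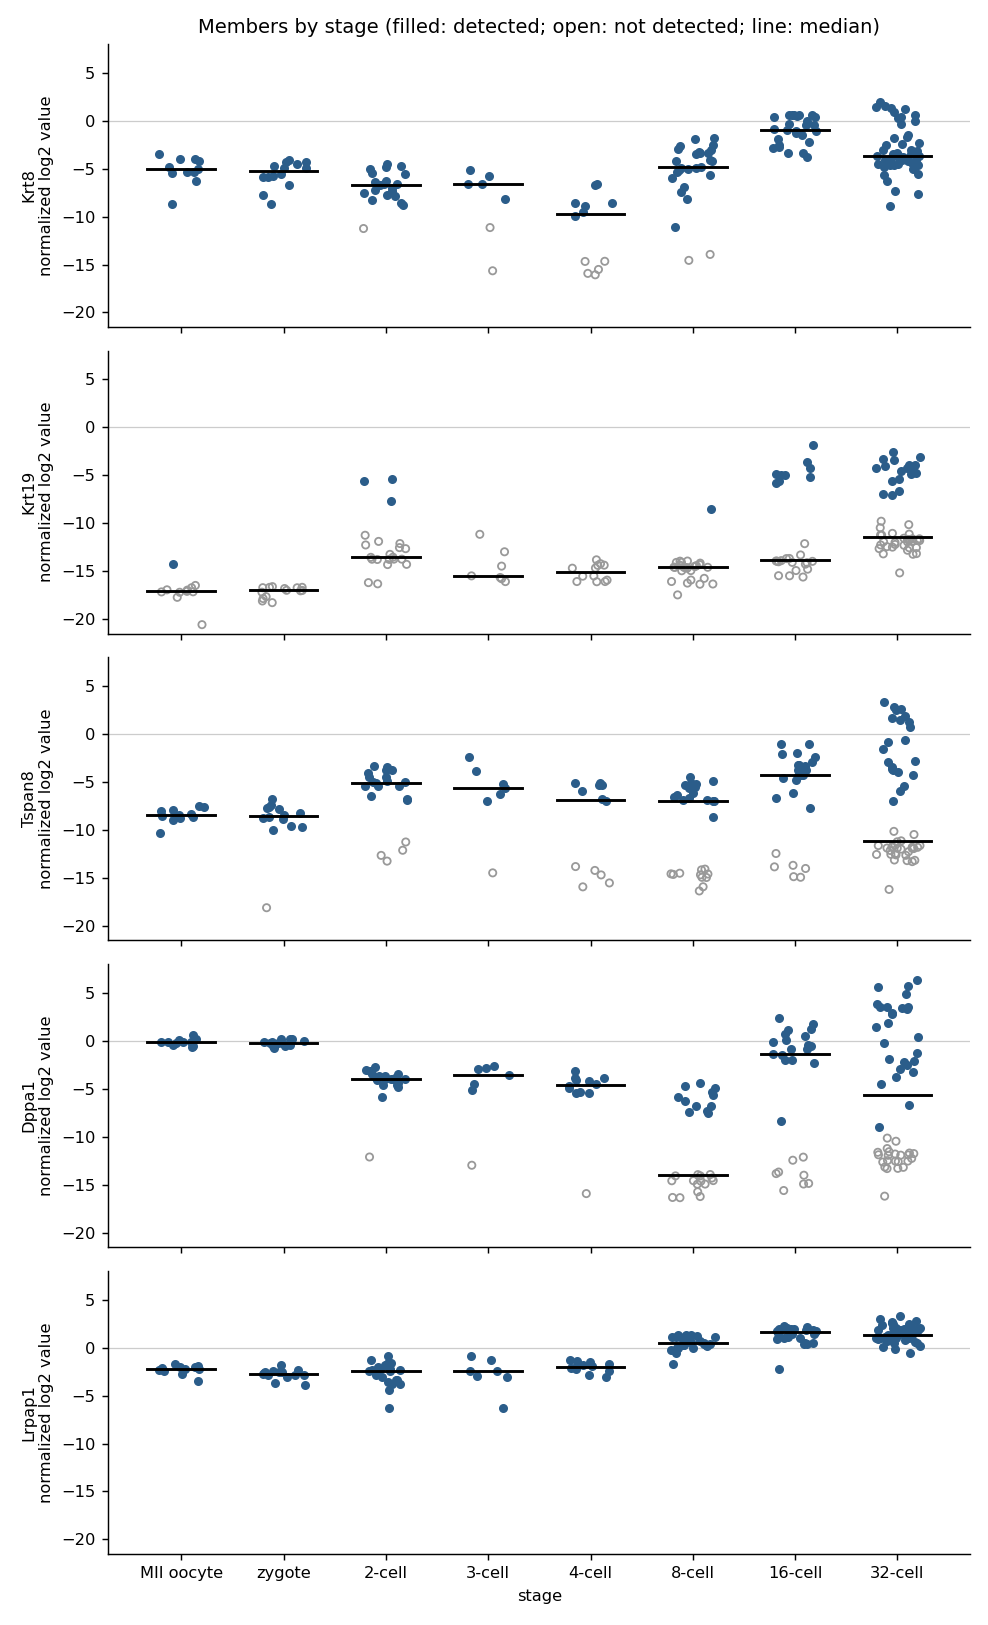
Normalized log2 value (y axis) of each gene in every sample of the main set, by stage (x axis), with filled points for detected and open points for not detected values and a line at the median of all samples of a stage. Krt8 was lowest at the 4-cell stage, Dppa1 left its oocyte level at the 2-cell stage, detected Krt19 was scattered over few samples, and Tspan8 and Dppa1 reached from the lower limit to their highest values at the 32-cell stage.

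Krt8 was present in oocytes, declined to the 4-cell stage and came back at the 8- and 16-cell stages. It ranged from −8.72 to −3.43 in the 11 MII oocytes with a median of −5.08, from −8.68 to −4.11 in zygotes with a median of −5.24, and from −11.2 to −4.50 at the 2-cell stage with a median of −6.68. At the 4-cell stage it was undetected in 5 of 12 samples, none of them a whole embryo. Its highest value at this stage, −6.65, was below the oocyte median. At the 8-cell stage 25 of 27 samples had detectable Krt8, with a median of −4.82 and a highest value of −1.85, so the 4- and 8-cell stages overlapped only in part. All 26 samples of the 16-cell stage were positive, between −3.80 and 0.64 with a median of −0.93, and 25 of them were above the highest oocyte. The 32-cell samples were all positive too, but spread more widely, from −8.88 to 1.91 with a median of −3.63.

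By limma, Krt8 fell by 3.64 ± 0.89 (SE) from the 2- to the 4-cell stage (adjusted p = 0.00153), rose by 4.47 ± 0.92 from the 4- to the 8-cell stage (adjusted p = 4.54e-05) and rose by 5.20 ± 1.32 from the 8- to the 16-cell stage (adjusted p = 0.00276). Its fitted rise into the 16-cell stage was the 3rd highest of the 156 genes. With only 2 embryos of the 16-cell stage, this rise was 4.53 with an adjusted p of 0.0916 when embryo 4 was left out. Without normalization, the fall to the 4-cell stage was −2.36 (adjusted p = 0.0915) and the rise to the 16-cell stage 3.83 (adjusted p = 0.112), so neither passed there. The median of all genes was 0.85 and −1.04 in these unnormalized steps. In the second, 1 of the 156 genes was called higher and 15 lower. The difference of −2.09 ± 1.32 from the 16- to the 32-cell stage did not pass the test (adjusted p = 0.331).

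Krt19, the type I keratin, was a rare and irregular transcript. It was detected in 1 of 11 MII oocytes, 0 of 14 zygotes, 3 of 21 samples of the 2-cell stage, 0 of 7 of the 3-cell stage, 0 of 12 of the 4-cell stage and 1 of 27 of the 8-cell stage. The share of positive samples was higher in the late stages, with 9 of 26 in morulae (16-cell) and 18 of 50 in blastocysts (32-cell). Where it was detected, it was well above the lower limit: the 9 positive samples of the 16-cell stage lay between −5.83 and −1.88, and the 18 of the 32-cell stage between −7.00 and −2.58. The positive samples of the 2-cell stage reached −5.36, which is within the range of the late stages.

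Most Krt19 values were at the lower limit, and the size of its fitted differences depended on how that limit was treated. The test called Krt19 higher at the 2-cell stage than in zygotes (4.33 ± 0.83, adjusted p = 7.57e-06), although only 3 samples were positive. Without normalization the difference was 1.33 (adjusted p = 0.108), beside a median of −3.33 over all genes. With a common floor of −10 for all samples it was 0.66 and did not pass (adjusted p = 0.0753). Likewise the fall of 2.52 ± 1.01 from the 2- to the 4-cell stage (adjusted p = 0.048) became −0.66 (adjusted p = 0.202), and it lost its call under 7 of 10 alternatives in all. From MII oocytes to the mean of the 16- and 32-cell stages Krt19 was called higher by 6.89 ± 0.94 (adjusted p = 3.53e-09), and with the common floor by 1.80 (adjusted p = 2.53e-05). The step from the 8- to the 16-cell stage did not pass (3.60 ± 1.50, adjusted p = 0.0676), but it did with the common floor (1.66, adjusted p = 0.0339).

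Tspan8, the tetraspanin, was low in oocytes and had separate positive and negative samples from the 2-cell stage on. Oocytes were all positive, between −10.3 and −7.48 with a median of −8.45, and 13 of 14 zygotes were positive with a median of −8.53 over all 14. At the 2-cell stage the 17 positive samples of 21 lay between −6.84 and −3.31, all above the highest zygote at −6.79 except for the lowest. Of the 4-cell samples 7 of 12 were positive, of the 8-cell samples 16 of 27, of the 16-cell samples 20 of 26 and of the 32-cell samples 22 of 50. All whole embryos of the 4- and 8-cell stages (3 each) were positive. The highest value was −4.44 among 8-cell samples, −1.01 among 16-cell samples and 3.33 among 32-cell samples, so a minority of late blastomeres had far more Tspan8 than any earlier sample. Only the rise from zygotes to the 2-cell stage passed the test (3.403 ± 0.983, adjusted p = 0.00181). Treating every sample as a unit with the embryo as a random block gave 2.99 with an adjusted p of 0.133 for this step, and without normalization it was 0.40 (adjusted p = 0.721). The median of all genes without normalization was −3.33 in this step.

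Dppa1 was abundant and uniform in oocytes, dropped at the 2- and 8-cell stages and returned in part of the late blastomeres. It lay between −0.59 and 0.62 in MII oocytes and between −0.76 and 0.22 in zygotes, with medians of −0.13 and −0.20. At the 2-cell stage the highest of 21 samples was −2.68, so no sample of this stage overlapped with oocytes or zygotes, and the median was −3.93. Its median was −4.64 at the 4-cell stage, where 11 of 12 samples were positive, and at the 8-cell stage only 12 of 27 samples were positive. The whole embryos of these stages (3 each) were all positive, with means of −4.29 and −6.87. At the 16-cell stage 18 of 26 samples were positive with a highest value of 2.38, and at the 32-cell stage 27 of 50 with a highest value of 6.37. Oocytes and late blastomeres thus overlapped in both directions: 5 samples of the 16-cell and 14 of the 32-cell stage were above the highest oocyte, while 16 and 34 were below the lowest.

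By limma, Dppa1 fell by 3.81 ± 0.80 from zygotes to the 2-cell stage (adjusted p = 3.37e-05), fell by 4.71 ± 1.00 from the 4- to the 8-cell stage (adjusted p = 8.47e-05) and rose by 4.88 ± 1.45 from the 8- to the 16-cell stage (adjusted p = 0.0113). With every sample as a unit and the embryo as a random block, the first fall was −3.99 and missed the threshold (adjusted p = 0.0696). The last rise did not pass without embryo 4 (5.31, adjusted p = 0.0709), without embryo 5 (4.44, adjusted p = 0.143), without groups of blastomeres (3.68, adjusted p = 0.0791) or without normalization (3.51, adjusted p = 0.215). From MII oocytes to the mean of the late stages Dppa1 fell by 5.39 ± 0.90 (adjusted p = 4.76e-07).

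Lrpap1, the receptor chaperone, was detected in every sample and rose at the 8-cell stage. Its median was −2.22 in oocytes, −2.71 in zygotes, −2.42 in 2-cell and −1.97 in 4-cell samples, and 0.53, 1.65 and 1.34 at the 8-, 16- and 32-cell stages. The highest of 12 samples at the 4-cell stage was −1.32 and the lowest of 27 at the 8-cell stage −1.71, so these stages barely overlapped. The rise from the 4- to the 8-cell stage was 2.59 ± 0.32 (adjusted p = 1.62e-09), and no other step between neighbouring stages passed the test. Over the whole course it rose by 3.64 ± 0.29 from MII oocytes to the late stages (adjusted p = 2.02e-16), and all 50 samples of the 32-cell stage were above the highest oocyte.

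Counted by step, 0 of the 5 genes were called between MII oocytes and zygotes, with differences of −0.66 to −0.05. In that step limma called 0.641% of the 156 genes higher and 1.28% lower, and of the 5 genes Lrpap1 alone had an unadjusted p below 0.05 (0.045). From zygotes to the 2-cell stage 2 were called higher (Krt19, Tspan8) and 1 lower (Dppa1), where 29.5% of all genes were higher and 39.1% lower. From the 2- to the 4-cell stage 0 were higher and 2 lower (Krt8, Krt19), against 7.05% and 25.6% of all genes. From the 4- to the 8-cell stage 2 were higher (Krt8, Lrpap1) and 1 lower (Dppa1), against 13.5% and 35.9%. From the 8- to the 16-cell stage 2 were higher (Krt8, Dppa1) and 0 lower, against 19.9% and 8.33%. From the 16- to the 32-cell stage 0 were called, against 8.97% higher and 1.92% lower, and 0 of the 5 had an unadjusted p below 0.05. From MII oocytes to the late stages 3 were higher and 1 lower, against 37.2% and 46.2%.

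The control genes mattered for the comparisons that span many stages. The deposited normalized values are relative to Gapdh, Hspa8 and Lmnb1, all assays marked as failed, and on that scale the median difference of all genes from MII oocytes to the late stages was −3.74 in place of −0.50. There, Krt8 differed by −0.15 (adjusted p = 0.869) and Lrpap1 by 0.41 (adjusted p = 0.237) between oocytes and late stages, while Krt19 and Dppa1 kept their calls. On this deposited scale 22 genes were higher and 109 lower over this comparison, against 58 and 72. For the step from the 8- to the 16-cell stage the split was 3 higher and 76 lower, against 31 and 13, with Krt8 still called higher and Dppa1 at 3.00 (adjusted p = 0.0863). Without any normalization the difference from oocytes to late stages was −0.66 for Krt8 and −0.11 for Lrpap1. The median of all genes was −4.25 there, with 18 higher and 111 lower.

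Whole embryos gave a view that does not depend on which blastomeres were picked. The 15 whole embryos (3 each of the 2-, 4-, 8-, 16- and 32-cell stages) were fitted apart from the stage series, with which they share the 2-, 4- and 8-cell embryos. In an embryo taken whole, a smaller number of expressing cells and less RNA per cell cannot be told apart.

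Krt8 was −4.90, −5.05 and −11.1 in the 3 whole embryos of the 8-cell stage, −0.76, −0.79 and 0.28 at the 16-cell stage, and 0.96, 0.79 and 0.45 at the 32-cell stage. All late embryos were above all 8-cell embryos. The rise from the 8- to the 16-cell stage was 6.59 ± 1.28 (adjusted p = 0.00364), and the further difference of 1.16 ± 1.28 did not pass (adjusted p = 0.516).

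Dppa1 was −7.40, −7.36 and −5.86 at the 8-cell stage, −0.79, −1.35 and 0.72 at the 16-cell stage and 2.35, 2.33 and 2.04 at the 32-cell stage, without overlap between any of these stages. It rose by 6.40 ± 0.58 (adjusted p = 1.5e-05) and then by 2.71 ± 0.58 (adjusted p = 0.00668). Tspan8 followed with −8.65, −6.29 and −6.17, then −4.35, −5.11 and −3.57, then −0.52, 0.23 and −0.32. These groups did not overlap either, and Tspan8 rose by 2.69 ± 0.69 (adjusted p = 0.0152) and by 4.14 ± 0.69 (adjusted p = 0.00178). On the deposited scale the first of these rises was 0.54 (adjusted p = 0.561), and it also missed the threshold without 8-cell embryo 1 (1.89, adjusted p = 0.0546) or without 16-cell embryo 3 (2.30, adjusted p = 0.0696). Without normalization the rises into the 32-cell stage did not pass, with 0.81 for Dppa1 (adjusted p = 0.323) and 2.24 for Tspan8 (adjusted p = 0.0502). The median of all genes was −2.46 there.

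Lrpap1 rose by 1.54 ± 0.47 into the 16-cell stage (adjusted p = 0.0384), from 0.53, 0.64 and −0.02 to 2.13, 1.87 and 1.77, and was 2.01, 1.86 and 1.62 at the 32-cell stage. The call of Lrpap1 was lost with any 1 of the 6 embryos left out (adjusted p between 0.0607 and 0.115), with the label number as a block (adjusted p = 0.0643), without Hnrnpr (0.0926), without Ube2e1 (0.0515) and with the sample median (0.0567), and the deposited scale turned its sign (−0.61, adjusted p = 0.341). Krt19 was detected in 1 of 3 whole embryos at the 8-cell stage (−8.47), in all 3 at the 16-cell stage (−7.11, −5.15 and −5.88) and in 2 of 3 at the 32-cell stage (−6.31 and −5.04), and neither step passed (adjusted p = 0.118 and 0.51).

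In whole embryos 4 of the 5 genes were thus called higher from the 8- to the 16-cell stage, where 16% of the 156 genes were higher and 3.21% lower. From the 16- to the 32-cell stage 2 were called higher, where 9.62% of genes were higher and 23.1% lower. The median difference of the 5 genes was 6.40 and 1.16 in these steps, beside 0.37 and −0.56 over all 156. On the deposited scale 8 genes were higher and 97 lower in the first step, and 2 of the 5, Krt8 and Dppa1, were still higher.

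**Figure D2:**
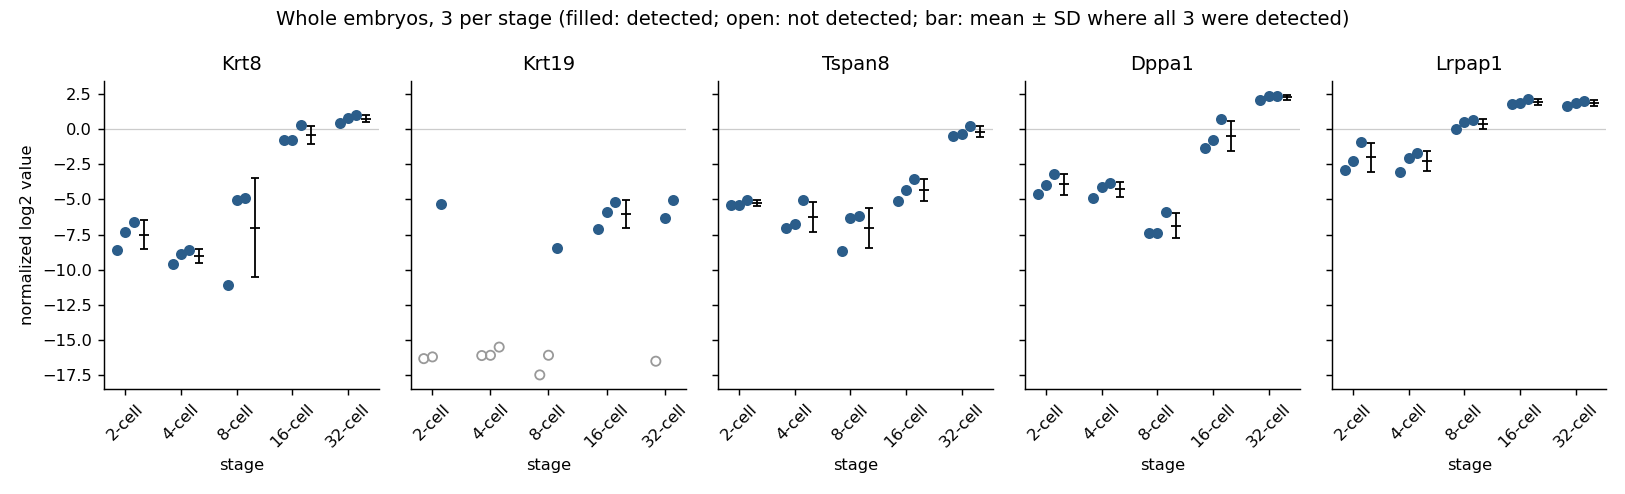
Normalized log2 value (y axis) of each gene in 3 whole embryos per stage (x axis), with filled points for detected and open points for not detected values, and the mean ± SD beside stages in which all 3 were detected. Dppa1 and Tspan8 rise at both late steps without overlap (the second not called without normalization, at 0.81 and 2.24), Krt8 and Lrpap1 rise into the 16-cell stage with no called change after it (on the deposited scale Lrpap1 does not, at −0.61), and Krt19 mixes detected and undetected embryos.

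The fitted step from the 16- to the 32-cell stage had opposite signs in whole embryos and in blastomere samples for Krt8 (1.16 and −2.09), Tspan8 (4.14 and −2.16) and Dppa1 (2.71 and −1.49), and the difference between these sources was not tested. The composition of the picked samples differed between the stages. A lineage axis was computed per sample as the mean of Cdx2, Gata3, Id2 and Tead4 minus the mean of Sox2, Nanog, Pou5f1, Fgf4, Klf2, Esrrb and Pecam1. Its median was 4.18 over the 26 samples of the 16-cell stage and −5.19 over the 50 of the 32-cell stage. It was above 0 in 18 of 26 and in 12 of 50 samples, and these 12 came from 4 of the 7 embryos. The part of this composition in the stage differences was not tested.

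Among blastomeres of the same stage, Krt8, Tspan8 and Dppa1 tracked the lineage axis closely, Lrpap1 weakly, and Krt19 had no detectable slope. In the 32-cell stage Krt8 had a median of 0.75 in the 12 samples with an axis above 0 and of −3.99 in the 38 with an axis below 0. Tspan8 was detected in 12 of 12 and in 10 of 38 of these samples, and Dppa1 in 12 of 12 and in 15 of 38. In the 12 samples Dppa1 lay between 0.36 and 6.37 with a median of 3.58, and Tspan8 between −3.58 and 3.33 with a median of 1.63. Lrpap1 had medians of 2.47 and 1.24. The axis has no absolute 0 because it joins different assays, and the lower limit was of similar height on both sides (medians −12.8 and −12.0).

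The 16-cell stage showed the same order over a shorter axis, which ran from −5.53 to 8.35. Dppa1 was detected in 16 of 18 samples above 0 and in 2 of 8 below, and Tspan8 in 17 of 18 and in 3 of 8. Krt8 was present in every sample, with medians of −0.17 above 0 and −2.03 below. Krt19 was detected on both sides, in 4 of 18 and 5 of 8 samples at the 16-cell stage and in 7 of 12 and 11 of 38 at the 32-cell stage.

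**Figure D3:**
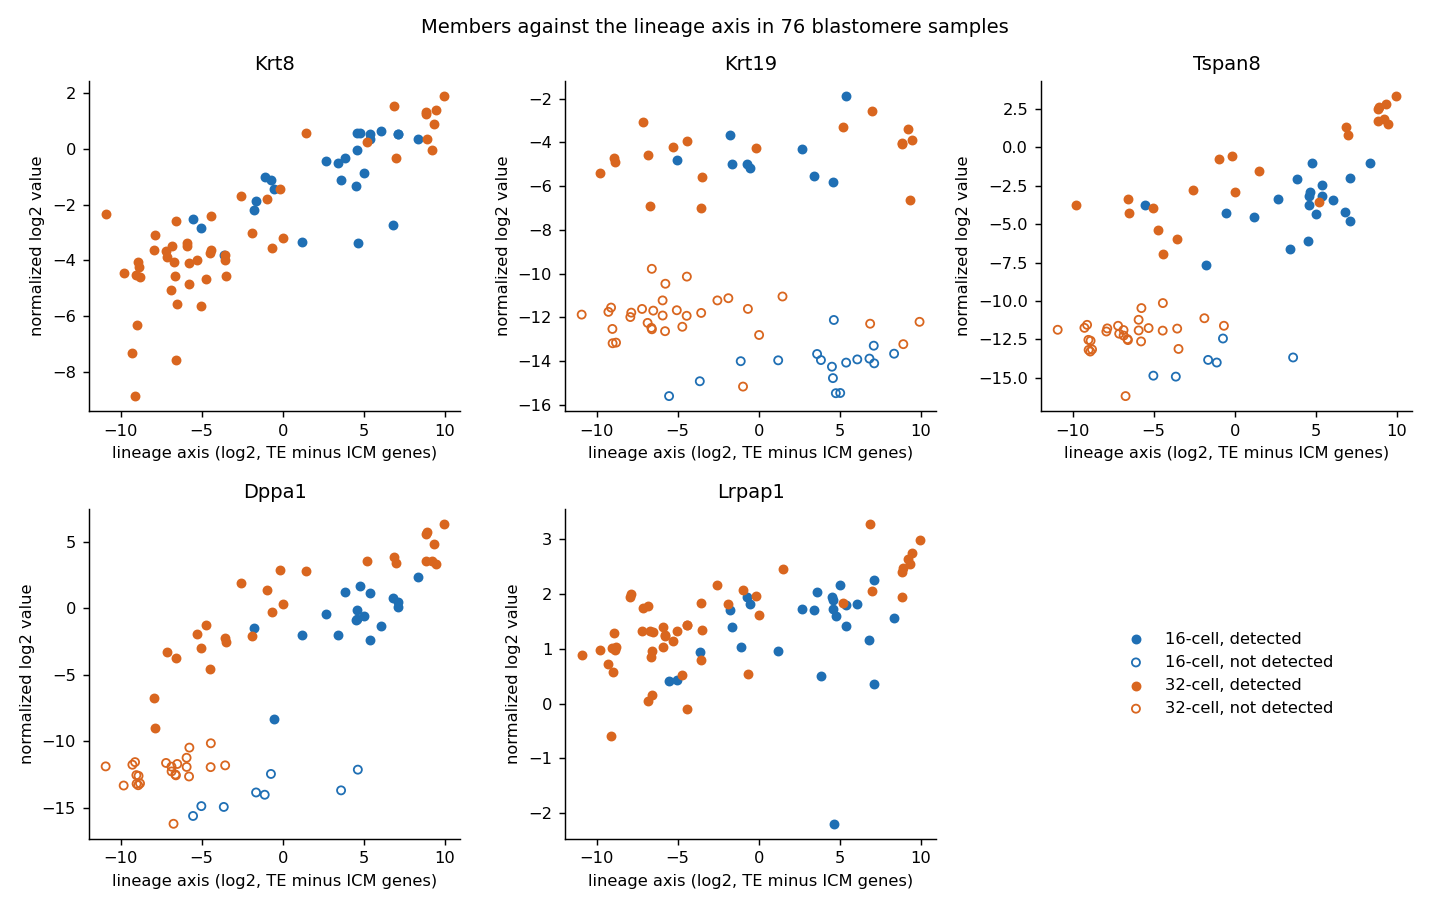
Normalized log2 value of each gene (y axis) against the lineage axis (x axis, log2) in the 26 samples of the 16-cell stage (blue) and the 50 of the 32-cell stage (orange), with open points for not detected values. Dppa1 and Tspan8 go from undetected to high along the axis, Krt8 climbs without being lost at the ICM end, Lrpap1 climbs little, and detected Krt19 lies at both ends.

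For a test, the slope of each gene on the axis was taken within each of the 6 embryos with at least 6 samples, and the slopes entered limma as 6 units. Krt8 had slopes of 0.24 and 0.19 in 16-cell embryos 4 and 5 and of 0.34, 0.39, 0.32 and 0.34 in 32-cell embryos 1, 8, 9 and 13, all above 0. The mean was 0.31 ± 0.03 (SE, adjusted p = 0.000653). Dppa1 had slopes of 1.65 and 1.22 at the 16-cell stage and of 0.80, 0.90, 0.84 and 1.10 at the 32-cell stage. Its mean of 1.09 ± 0.11 (adjusted p = 0.000872) was the highest of the 156 genes. Values not detected entered at the lower limit, for Dppa1 8 of 26 at the 16-cell and 23 of 50 at the 32-cell stage. The size and rank of its slope include them, as do those of Tspan8 (6 of 26 and 28 of 50).

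Tspan8 had slopes of 1.11 and 0.72 in the 16-cell and of 0.62, 0.77, 0.91 and 0.92 in the 32-cell embryos, with a mean of 0.84 ± 0.06 (adjusted p = 0.000471) that ranked 3rd. Lrpap1 had 0.01 and 0.03 in the 16-cell and 0.08, 0.11, 0.09 and 0.09 in the 32-cell embryos, and its mean of 0.07 ± 0.02 passed the test (adjusted p = 0.0382). The call of Lrpap1 was lost when any 1 of the 4 blastocysts was left out (adjusted p between 0.0936 and 0.109) and with single cells alone, which left 4 embryos (0.05, adjusted p = 0.364). It was also lost without Hnrnpr (adjusted p = 0.134), without normalization (0.148), with the ICM genes alone as axis (0.218) and with all 9 embryos (0.626). Krt19 had slopes of −0.65 and −0.31 at the 16-cell stage and of 0.13, 0.55, 0.06 and −0.08 at the 32-cell stage, so its mean of −0.05 ± 0.15 did not pass (adjusted p = 0.83).

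Of the 5 genes, 4 were thus called with a positive slope and 0 with a negative one, where 10.9% of the 156 genes were positive and 14.7% negative. Their median slope was 0.31, beside −0.02 over all genes. Krt8, Tspan8 and Dppa1 were placed in the trophectoderm core set of the study from their correlations in these same 76 samples, so their slopes are no independent evidence of direction. Krt19 and Lrpap1 were not in that set. The slopes of the 32-cell embryos minus those of the 16-cell embryos were 0.13 ± 0.03 for Krt8, 0.65 ± 0.20 for Krt19, −0.11 ± 0.14 for Tspan8, −0.52 ± 0.14 for Dppa1 and 0.07 ± 0.02 for Lrpap1, and none of the 5 passed the test (adjusted p between 0.116 and 0.652). With all 9 embryos in the fit, also those with few samples, Krt8 had a mean slope of 0.16 and did not pass (adjusted p = 0.626), while Tspan8 and Dppa1 did.

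**Figure D4:**
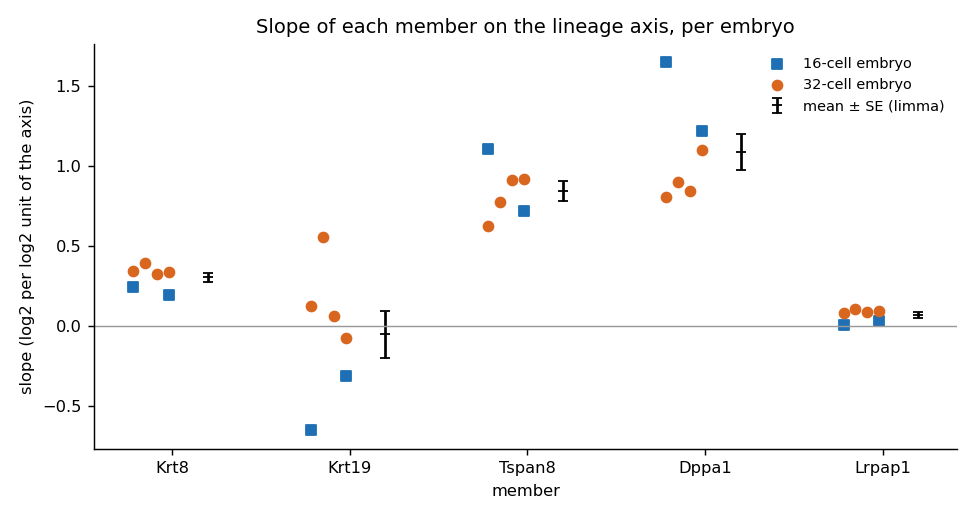
Slope of each gene on the lineage axis (y axis, log2 per log2 unit) for 2 embryos of the 16-cell stage (squares) and 4 of the 32-cell stage (circles), with the mean ± SE from limma in black. All 6 slopes of Krt8, Tspan8, Dppa1 and Lrpap1 are above 0, those of Lrpap1 only just, and those of Krt19 lie on both sides.

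Among the 8 other trophectoderm genes of the panel that were compared with them, Gata3 (0.68 ± 0.07, adjusted p = 0.000872), Cdx2 (0.50 ± 0.08, adjusted p = 0.00421), Id2 (0.87 ± 0.11, adjusted p = 0.00192) and Tead4 (0.09 ± 0.02, adjusted p = 0.00611) had positive slopes with themselves left out of the axis. Fgfr2 and Lats2 had small positive slopes of 0.18 and 0.17 (adjusted p = 0.00147 and 0.000653). In all, 6 of the 8 were positive, 1 was negative (Hand1, −0.50 ± 0.13, adjusted p = 0.039) and 1 did not pass. The study placed Cdx2, Gata3, Id2 and Tead4 in its trophectoderm-related set from correlations in the same late blastomere samples. It also reported Lats2 as correlated with that set. The slopes of Cdx2, Gata3, Id2, Tead4 and Lats2 are thus no independent evidence of direction either. Of the 8 genes, Id2 was the one that rose with Dppa1 and Tspan8 at both late steps of whole embryos (4.78 ± 0.56 and 1.97 ± 0.56, adjusted p = 0.000124 and 0.0198). Cdx2 was called higher at the first of them alone (4.11 ± 0.80, adjusted p = 0.00364), and Elf5 at the second alone (6.25 ± 2.14, adjusted p = 0.0427).

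In pairs, the genes that tracked the axis also tracked each other. Over the 76 late blastomere samples, which share embryos and control genes, Spearman's rho was 0.86 between Tspan8 and Dppa1, 0.69 between Krt8 and Tspan8, 0.68 between Krt8 and Dppa1 and 0.67 between Krt8 and Lrpap1. Krt19 had a rho of −0.01 with its possible partner Krt8 and of 0.05, 0.12 and 0.20 with Tspan8, Dppa1 and Lrpap1. It was not detected in most of these samples, so most of its ranks are those of the lower limit, which the control genes set. Within the 16-cell stage its rho was −0.09 with Krt8, −0.06 with Tspan8 and −0.03 with Dppa1, and within the 32-cell stage 0.26, 0.25 and 0.28. Detection of Tspan8 and Dppa1 coincided in most samples: at the 16-cell stage 18 of 26 samples held both, 6 neither, 2 Tspan8 alone and 0 Dppa1 alone, and at the 32-cell stage 20 of 50 held both, 21 neither, 2 Tspan8 alone and 7 Dppa1 alone. Krt19 was detected in 6 samples with and 3 without Dppa1 at the 16-cell stage, and in 13 with and 5 without at the 32-cell stage.

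Of all 155 other genes, the 3 most like Krt8 by rho were Gata3 (0.84), Cdx2 (0.79) and Id2 (0.74). These values pool the 2 stages: within the 16-cell stage rho was 0.53, 0.45 and 0.86 for these 3 genes, with Id2 first, and within the 32-cell stage 0.74, 0.67 and 0.68. Those most like Tspan8 were Dppa1, Gata3 (0.75) and Cdx2 (0.69), and those most like Dppa1 were Tspan8, Id2 (0.76) and Gata3 (0.75). Lrpap1 was nearest to Krt8, Id2 (0.63) and Dppa1 (0.63), and within the 16-cell stage its rho with Krt8 was 0.41, against 0.80 within the 32-cell stage. For Krt19 the nearest genes, Jmjd5, Setd8 and Setd7, reached only 0.31, 0.31 and 0.30.

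Within single embryos the spread was large for the genes that were lost in some blastomeres. In 32-cell embryo 13, 2 of 6 samples held Dppa1, and values reached from −13.3 to 6.37. In 32-cell embryo 1, with 12 samples, Dppa1 was detected in 9, Tspan8 in 8 and Krt19 in 7, and Krt8 reached from −5.63 to 1.56. In contrast, embryo 12 of the same stage had neither Dppa1 nor Tspan8 in any of its 5 samples, while Krt8 was detected in all 5, between −4.85 and −3.47, and Lrpap1 between 1.03 and 1.32. At the 16-cell stage embryo 4 held Krt8 between −1.87 and 0.64 and embryo 5 between −3.80 and 0.58. At the 32-cell stage Tspan8 was detected in 10 of 18 groups of blastomeres and 12 of 32 single cells, and Krt19 in 9 of 18 and 9 of 32.

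The sample labelled as isolated ICM held trophectoderm transcripts at a high level. Its Cdx2 was 0.43 and its Gata3 1.53, against 1.84 and 2.73 in the sample labelled as isolated trophectoderm, while Sox2 was −0.17 and −6.01 and Esrrb 0.35 and −6.34. Of the other trophectoderm genes of the axis, Id2 was 2.27 and 2.59 and Tead4 0.356 and 0.359. Of the other ICM genes, Nanog was 1.38 and 0.08, Pou5f1 4.99 and 4.52 and Fgf4 −3.28 and −4.10. Klf2 was 0.21 and −2.95, and Pecam1 0.23 and −4.43. Krt8 was −0.07 in the ICM-labelled and 1.00 in the trophectoderm-labelled sample, Tspan8 −0.94 and 0.25, Dppa1 2.18 and 3.62, and Lrpap1 2.84 and 3.56. These 4 genes differed by 0.72 to 1.45, and Krt19 differed the other way, with −4.95 in the ICM-labelled and −7.90 in the trophectoderm-labelled sample. Each is 1 sample, so these differences have no replicate check.

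ESC RNA separated the 2 keratins from Tspan8 and Dppa1. Krt8 and Krt19 were detected in all 10 dilutions, at −1.09 ± 0.52 and −0.49 ± 0.55 (SD), and the lowest Krt19 value there (−1.52) was above the highest of any blastomere (−1.88). Lrpap1 was at −1.70 ± 0.47. Dppa1 was detected in 3 and Tspan8 in 5 of 10. The detections of Dppa1 were all in samples titled ESC2 (32, 160 and 800 pg). Those of Tspan8 were all in samples of 160, 200 or 800 pg. The part of RNA input and stock in these counts was not tested. Of the 4 samples of 200 pg, 3 were titled ESC.a and gave the spread between repeats: the Ct had an SD of 0.15 for Krt19, 0.18 for Lrpap1 and 0.23 for Krt8. The 1 sample titled ESC.b had a Krt8 Ct of 16.2, against a mean of 14.7 in ESC.a, while Krt19 was at 14.6 and 14.5. Tspan8 was detected in 3 of the 4 and Dppa1 in none. The labels call all of these standard RNA, so they are not treated as separate cultures.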

How the data were processed

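RNA of single oocytes, zygotes, blastomeres, blastomere groups, whole embryos and ESC stocks was reverse transcribed, preamplified with all primers and run on microfluidic qPCR chips. The authors deposited non-normalized cycle thresholds, a score on which lower means more transcript and 30 marks no detection (2 values of the 5 genes lay above 30), and a normalized table on a log2 scale. The latter equals values relative to Gapdh, Hspa8 and Lmnb1 within 1.03e-08, whereas the methods name Hnrnpr, Ssu72 and Ube2e1. The named genes were used, on the 156 assays marked as passed and the samples the study retained. qPCR gives no read depth, so sensitivity is given by the lower limit per sample.

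Stages, whole embryos and slopes were fitted with limma 3.58.1 (R 4.3.3; lmFit, eBayes) over all 156 genes with Benjamini-Hochberg adjustment, and genes were called at an adjusted p below 0.05. P-values rest on the spread between units, with 1 estimate per gene shared by all stages in a fit. That spread differed between stages: the SD of Dppa1 over units was 0.34 in MII oocytes and 4.02 at the 32-cell stage. The fits were tested on simulated data. Other steps used Python 3.11.15 with pandas 2.3.3. The 11 blastomeres of 2-cell embryos without an embryo number formed 1 unit. No 2 samples shared identical values in most assays. The alternatives were each control gene left out, no or median normalization, the deposited scale, a common floor of −10, other units, samples or axes, and each embryo left out. The genes, lists and tests were chosen with earlier results of these data known. Named were the 5 genes, other trophectoderm, axis and control genes, and the 3 genes most like each by Spearman's rho.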

Additional observations from a re-analysis of the deposited data

Results flagged for a closer look

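Within groups of 4 to 10 units, the gap of the highest or lowest unit to its neighbour was tested in 30 groups of the 5 genes, and 3 stood apart. Chance gives about 1 in 20 where values have a normal spread. This rate does not apply to Krt19, whose values were mostly at the lower limit. Krt19 was −5.36 in 1 whole embryo of the 2-cell stage, the highest of 8 units, and −8.47 in 1 whole embryo of the 8-cell stage, the highest of 7. Dppa1 was −7.43 in 1 embryo of the 4-cell stage, the lowest of 6. This mean holds 1 blastomere in which Dppa1 was not detected, at its lower limit of −15.9. The other blastomeres had −3.88, −5.41 and −4.53, so the rate does not apply to this mean either. ESC RNA, which entered no comparison, held Krt8 (−1.09), Krt19 (−0.49) and Lrpap1 (−1.70, means of 10 samples) at detectable levels in every dilution.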

How the results depend on the processing

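Of 605 differences and slopes of the 5 genes recomputed under alternatives, 504 kept their direction and their side of the threshold, 46 were no longer called, 16 became called and 39 changed sign. Called differences changed sign for Krt8 and Lrpap1 from MII oocytes to the late stages and for Lrpap1 in whole embryos from the 8- to the 16-cell stage, and the other sign changes concerned differences not called in the main analysis. The causes were not tested. The slopes of Dppa1 and Tspan8 were called under all 17 alternatives (0.97 to 1.80 and 0.71 to 1.43), as were the falls of Dppa1 from the 4- to the 8-cell stage (−5.47 to −3.16) and the rises of Krt8 (3.28 to 5.61) and Lrpap1 (2.27 to 3.06) in that step under all 10.

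Counts of called genes moved as follows. With every sample as a unit and the embryo as a random block, 1 was called from zygotes to the 2-cell stage, 1 from the 2- to the 4-cell and 4 from the 8- to the 16-cell stage. From the 2- to the 4-cell stage 1 was called without Ube2e1, without normalization, with the sample median, with the common floor, without groups of blastomeres and with the 3 samples that the study left out. This was the fall of Krt8 except without normalization, where it was Lrpap1 higher (1.49, adjusted p = 0.0324). From zygotes to the 2-cell stage 3 were called without normalization too, but there Krt8, Dppa1 and Lrpap1 were lower and the rises of Krt19 and Tspan8 were lost. From the 8- to the 16-cell stage 0 were called without normalization, 1 on the deposited scale, 1 without groups of blastomeres, and 0 to 1 with a 16-cell embryo left out. Of all genes, 1 was higher and 15 lower without normalization, 3 and 76 on the deposited scale and 26 and 12 without groups. With embryo 4 left out these counts were 11 and 7, and with embryo 5 left out 13 and 6. Without normalization 2 were called from the 16- to the 32-cell stage, 2 from MII oocytes to the late stages and 1 in whole embryos from the 16- to the 32-cell stage, which was Lrpap1 lower (−1.99, adjusted p = 0.0215), while the rises of Dppa1 and Tspan8 lost their calls. Of all genes, 2 were higher and 50 lower in the first of these comparisons (median −1.81) and 18 and 111 in the second (median −4.25). In the whole embryos they were 2 and 95 (median −2.46). On the deposited scale 2 were called from MII oocytes to the late stages and 2 in whole embryos from the 8- to the 16-cell stage, where leaving out 1 embryo gave 2 to 3. The deposited scale had 22 of all genes higher and 109 lower in the first, and 8 and 97 in the second. Leaving out 1 embryo gave 17 to 24 genes higher and 5 to 9 lower. With all 9 embryos 2 slopes were called.

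Signs changed without normalization for Lrpap1 (−2.52 from zygotes to the 2-cell stage, −0.55 from the 8- to the 16-cell, −1.90 from the 16- to the 32-cell, −0.11 from MII oocytes to the late stages, with the −2.52 and the −1.90 past the threshold), Krt8 (−0.66 from MII oocytes to the late stages, −0.75 in whole embryos from the 16- to the 32-cell stage), Dppa1 (0.37 from the 2- to the 4-cell), Tspan8 (0.12 from the 4- to the 8-cell, −2.48 from MII oocytes to the late stages) and Krt19 (−0.69 from the 16- to the 32-cell). On the deposited scale they changed for Lrpap1 (−0.10 from the 2- to the 4-cell, −1.07 from the 8- to the 16-cell, −1.09 from the 16- to the 32-cell and −0.61 in whole embryos from the 8- to the 16-cell), Krt8 and Tspan8 (−0.15 and −1.97 from MII oocytes to the late stages), and Krt19 and Dppa1 (0.11 and 0.061 from MII oocytes to zygotes). With the sample median the changes were 0.16 for Krt19 and 0.12 for Dppa1 from MII oocytes to zygotes, 0.27 for Tspan8 from the 4- to the 8-cell, and −0.18 for Lrpap1 from the 16- to the 32-cell, with 0.37 in whole embryos. Without a control gene they were 0.011 (Ssu72) and 0.027 (Ube2e1) for Krt19 from MII oocytes to zygotes, and for Lrpap1 −0.022 from zygotes to the 2-cell (Ube2e1), −0.10 in both cases from the 16- to the 32-cell (Hnrnpr, Ube2e1) and 0.42 in whole embryos (Ssu72). The common floor gave −0.16 for Krt19 from the 16- to the 32-cell, the added samples 0.41 for Krt8 from MII oocytes to zygotes, and the slope of Krt19 was 0.0022 with all 9 embryos and 0.0018 with the core genes of the study as axis.

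With 1 embryo left out, Lrpap1 was −0.28 to 0.42 from the 16- to the 32-cell stage, and in whole embryos −0.18 to 0.014 for Lrpap1 and −5.36 to 0.37 for Krt19, whose slope was −0.17 to 0.070. Numbers in the labels of whole embryos do not pair them: 6 of 30 pairs of equal number had a correlation of deviations over 0.1, with a median of −0.03. With the number as a replicate block 3 of the 5 genes were called from the 8- to the 16-cell stage and 2 from the 16- to the 32-cell stage, and the call of Lrpap1 in the first (adjusted p = 0.0643) was the one that changed. In that fit 23 of all genes were higher and 5 lower in the first step, and 15 and 36 in the second. The blastomere samples of the 16-cell stage come from 2 embryos, which limits the stage comparisons with them.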
